A study of Mus musculus with 3 samples.

Results

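The transcripts described here encode aminoacyl-tRNA synthetases, the enzymes that join each amino acid to its transfer RNA (tRNA). Members were the gene symbols made of a single amino acid letter followed by "ars", with or without a closing 1 or 2, together with Eprs, Farsa and Farsb. The rule found 37 genes among the 32285 listed. The 17 symbols ending in 2 were taken as the mitochondrial enzymes and the other 20 as the cytosolic enzymes. Gars and Kars, counted as cytosolic, are known to serve both compartments. Tarsl2, a threonine enzyme of another name, lay outside the rule.

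Single-cell RNA was sequenced from E14, an embryonic stem cell line derived from 129/Ola mice, kept in serum with leukemia inhibitory factor. From 24 h after seeding, cells received 250 µg/mL cycloheximide in 0.007% ethanol for 3 h or for 6 h, and control cells received ethanol alone for 6 h. Cycloheximide blocks the elongation step of translation. There was 1 library per group, and 3 h ethanol cells were not analysed here, so every difference below is between libraries and has no replicate check. All cultures were frozen and thawed before 10x Genomics 3' v3 processing.

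Charging of tRNA supplies the ribosome with amino acids. Cytosolic ribosomes and mitochondrial ribosomes use separate sets of tRNAs, and for most amino acids each compartment has an enzyme of its own, all of them made from nuclear genes. Several cytosolic enzymes sit together in the multisynthetase complex, which is held by the scaffold proteins Aimp1, Aimp2 and Eef1e1. Uncharged tRNA activates the kinase Gcn2 (Eif2ak4), and the transcription factor Atf4 that acts downstream is known to raise many cytosolic synthetase genes together with amino acid transporters and biosynthetic enzymes. The element through which Atf4 and its C/EBP partners act holds the core TGATGNAA.

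Promoter sequences are shown first because the cytosolic enzymes are known targets of that element. RefSeq promoters on GRCm38.p6, covering 250 bases before and 50 bases after the start, were matched at the gene's own locus for 27 of 37 members. Nars, Cars, Wars, Vars, Lars, Rars, Hars, Hars2 and Pars2 were among those not matched. On either strand, TGATGNAA was found in 5 of 13 cytosolic promoters (Aars, Gars, Iars, Tars and Yars) and in 0 of 14 mitochondrial ones, against 3.97% of all 32851 promoters in the table. The stricter form TGATGCAA, a subset of the first, was found in 4 cytosolic promoters and in 0.895% of all promoters. The E-box CACGTG, which Myc proteins bind and which reads the same on both strands, was found in 4 cytosolic promoters and 1 mitochondrial one, against 7.15% of all. Stretches of these 5 cytosolic promoters are printed on the strand of the gene, with the core or its reverse complement in capitals. Aars has a second match 10 bases past its start. In Iars and Yars the match lay just past the start, so only a short stretch is given.
Aars, 112 bases before the start, chr8:111033704-111033763, plus strand: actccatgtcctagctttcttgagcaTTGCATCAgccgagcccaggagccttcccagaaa
Aars, 10 bases past the start, chr8:111033845-111033864, plus strand: gtcactTTTCATCAgagcgc
Gars, 30 bases before the start, chr6:55037945-55038000, plus strand: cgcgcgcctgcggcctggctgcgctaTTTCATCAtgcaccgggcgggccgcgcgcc
Tars, 15 bases before the start, chr15:11399659-11399699, minus strand: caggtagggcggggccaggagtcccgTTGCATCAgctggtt
Iars, 8 bases past the start, chr13:49682131-49682150, plus strand: tcagtaTTGCATCAcctcca
Yars, 4 bases past the start, chr4:129189900-129189919, plus strand: ctcagcTGATGCAAcccgac
Farsa, which behaved unlike the other cytosolic members below, had no match, and the 60 bases before its start are given for contrast.
Farsa, chr8:84856926-84856985, plus strand: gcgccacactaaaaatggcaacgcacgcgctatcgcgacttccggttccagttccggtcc

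Values are UMI counts summed over the cells of a library and scaled to the total of those cells as CPM, where a unique molecular identifier (UMI) marks 1 captured molecule. Cells were barcodes with at least 15000 UMIs and 1 to 20% mitochondrially encoded UMIs. The control library held 2187 such cells, the 3 h library 1739 and the 6 h library 2554, with 106842407 to 140321458 UMIs per library and medians of 43160 to 51726 UMIs per cell. The mitochondrial limits left out 62 control barcodes, 1 at 3 h and 8 at 6 h. Between 1 and 3 cell barcodes were shared by any pair of libraries. The embryonic stem cell label was checked on 8 markers, all detected, whose summed level was 6656, 7664 and 6952 CPM in the control, 3 h and 6 h libraries. Dppa5a made up most of that sum, with 4771, 5327 and 5475 CPM. Relative to the control, 8 of 8 markers were higher at 3 h, whereas 6 of 8 were lower at 6 h, with a median log2 ratio of -0.21 and the lowest values for Zfp42 (-0.93) and Sox2 (-0.54). In the control, 3 h and 6 h libraries, 7 fibroblast markers summed to 3.09, 2.27 and 2.24 CPM and 6 endoderm markers to 11.3, 9.41 and 8.41 CPM. Sox7 was the largest part of the endoderm sum in the control, with 5.55, 1.32 and 0.299 CPM. Gata6 was also lower than in the control at 6 h, whereas Gata4, Sox17, Foxa2 and Pdgfra were higher, all at low levels. Col3a1 and Lum had 0 UMIs in every library. Summed levels were 12.8, 17.6 and 14.6 CPM for 5 mesoderm and neural markers and 0.583, 0.215 and 0 CPM for 3 markers of 2-cell-like cells.

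The 2 classes of enzyme moved apart after cycloheximide. By CPM, transcripts of the cytosolic synthetases were together lower than in the control and those of the mitochondrial synthetases together higher, at both times. The summed cytosolic level was 3478 CPM without drug (95% exact Poisson interval 3467 to 3489), 3242 CPM (3231 to 3253) after 3 h and 2922 CPM (2914 to 2931) after 6 h. The summed mitochondrial level was 362 CPM (359 to 366), 397 (393 to 401) and 429.9 (427 to 433) in the same order. No interval of 1 library overlapped that of another within either class. These and all intervals below cover counting error only. At 3 h the summed mitochondrial log2 ratio was 0.13, close to the median of 0.11 over all genes above 10 CPM. It was 0.02 with scaling factors of edgeR (TMM). Without Lars2, whose counts are described below, it was 0.28 (0.26 to 0.30) by CPM. The summed cytosolic log2 ratio at 3 h was -0.10 by CPM but 0.17 by mean UMIs per cell.

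Averaged over the libraries, all 20 cytosolic members reached 10 CPM, as did 12 of the 17 mitochondrial members. Nars2, Vars2, Mars2, Wars2 and Pars2 were below that floor and are kept out of the counts and medians. At 6 h, 15 of 20 cytosolic members were below the control, whereas 35.9% of all 7608 genes above the floor were. Their median log2 ratio was -0.22, beside an all-gene median of 0.17. At 3 h, 14 of 20 were below the control, again beside 35.9% of all genes, and the median was -0.07 beside 0.11. Above the control at 6 h were 9 of 12 mitochondrial members, when 64.1% of all genes lay there, and their median was 0.50. At 3 h the mitochondrial count was also 9 of 12 beside 64.1%, with a median of 0.27. The difference between the cytosolic and the mitochondrial median was -0.72 at 6 h and -0.34 at 3 h. Changes of scale shift both classes alike and leave this difference as it is.

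The scale decided where 0 lay. Scaling factors of edgeR (TMM) moved the all-gene median by -0.16 at 6 h and -0.11 at 3 h, and mean UMIs per cell moved it by 0.11 and 0.27. Under TMM, 19 of 20 cytosolic members were below the control at 6 h and 17 at 3 h, beside 49.1% and 50.1% of all genes. By mean UMIs per cell, 12 were below at 6 h and 2 at 3 h, beside 28.3% and 10.8% of all genes. The same genes were below the control in all 3 scalings for 12 cytosolic members at 6 h, but at 3 h only for Nars and Iars. Of the mitochondrial members, 9 were above the control at 6 h in all 3 scalings and 8 at 3 h, where Cars2 was the exception. The share of all genes that kept their sign in all 3 scalings was not computed, so these counts lack that background. Relative to the all-gene median, which no scaling affects, 19 of 20 cytosolic members were lower at 6 h and 17 at 3 h. For the mitochondrial members these counts were 3 of 12 and 4 of 12.

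**Figure D1:**
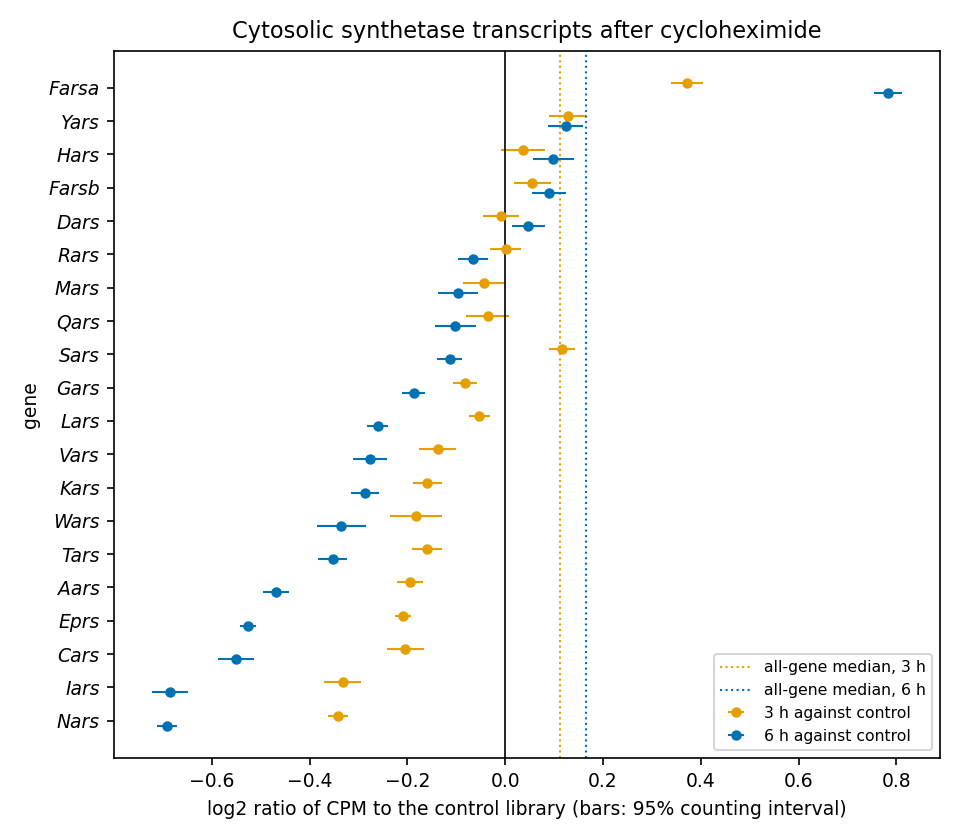
Log2 ratio of CPM to the control library for the 20 cytosolic synthetase genes, at 3 h (orange) and 6 h (blue). Bars are 95% counting intervals and dotted lines are the medians of all 7608 genes. At 6 h every gene except Farsa lies to the left of the all-gene median by CPM.

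The lowest ratios among the cytosolic members belonged to the asparagine and isoleucine enzymes. Nars (ENSMUSG00000024587), which charges asparagine tRNA, had 379 CPM (375 to 382) without drug, 299 CPM (296 to 302) after 3 h and 234.5 CPM (232 to 237) after 6 h. Its 3 h log2 ratio was -0.34 (exact conditional binomial interval -0.36 to -0.32) and its 6 h ratio -0.69 (-0.71 to -0.67). Iars (ENSMUSG00000037851, chromosome 13, 49682100 to 49734267 on GRCm38), the isoleucine enzyme, had 119 CPM (117 to 121), 94.3 CPM (92.4 to 96.1) and 73.8 CPM (72.4 to 75.2) in the same order. Its log2 ratio at 6 h was -0.69 (-0.72 to -0.65), equal within counting error to that of Nars. Both genes were lowest at 6 h and intermediate at 3 h, and no intervals overlapped.

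Cars, Eprs and Aars followed in the same graded order. Cars, the cysteine enzyme, had 110.4 CPM (108 to 112), 95.8 CPM (93.995 to 97.7) and 75.4 CPM (74.0 to 76.8), and a 6 h log2 ratio of -0.55 (-0.59 to -0.51). Eprs (ENSMUSG00000026615, chromosome 1, 185363044 to 185428360) carries the glutamate and proline activities in 1 protein. Its level was 566 CPM (561 to 570.2) without drug, 489 CPM (485 to 494) after 3 h and 393 CPM (389.8 to 396) after 6 h, and its 6 h log2 ratio was -0.53 (-0.54 to -0.51). Aars (ENSMUSG00000031960, chromosome 8, 111033144 to 111057664), the alanine enzyme, had 223 CPM (220.4 to 226), 195 CPM (192 to 198) and 161 CPM (159 to 163), and a 6 h log2 ratio of -0.47 (-0.50 to -0.44). These 5 genes with Tars and Wars made up the 7 cytosolic members lower by at least 1.25-fold at 6 h, a size that 15.9% of all genes reached. Tars, for threonine, had 158, 142 and 124 CPM, and Wars, for tryptophan, had 56.4 CPM (54.9997 to 57.8), 49.7 CPM (48.4 to 51.1) and 44.7 CPM (43.6 to 45.8). Exons of Aars overlap those of Exosc6 on the same strand in GENCODE M21, so the Aars counts are uncertain in that respect.

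Kars, Vars, Lars and Gars, for lysine, valine, leucine and glycine, had 6 h log2 ratios of -0.29, -0.28, -0.26 and -0.19. Gars, whose promoter holds the core 30 bases before its start, had 261 CPM (258 to 264) without drug, 246 CPM (243 to 249) after 3 h and 229 CPM (226 to 231) after 6 h. Smaller 6 h ratios were seen for Qars (-0.10), Mars (-0.10) and Rars (-0.07), the glutamine, methionine and arginine enzymes. By mean UMIs per cell these 3 genes were not below the control at 6 h. Exons of Mars overlap those of Ddit3 on the opposite strand in GENCODE M21, and how such reads were counted is not given in the sources used here. Ddit3 itself had 13.4, 28.1 and 29.9 CPM.

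From the control to 3 h and again from 3 h to 6 h, 13 of the 20 cytosolic members were lower at each step, as were 23.9% of all genes. Between 3 h and 6 h alone, 16 of 20 were lower, beside 42.3% of all genes, and these 16 genes were lower in all 3 scalings. By CPM, Sars (ENSMUSG00000068739), the serine enzyme, did not follow the graded order. Its level was 205 CPM (202 to 208) without drug, 222 CPM (219 to 225) after 3 h and 189 CPM (187 to 192) after 6 h, so the 3 h library was highest and the 6 h library lowest. Rars had 145.0, 145.1 and 138 CPM, with overlapping intervals in the control and at 3 h. Dars, the aspartate enzyme, had 109 CPM (107 to 111), 108 CPM (106 to 110.0) and 112 CPM (111 to 114), and its control and 3 h intervals overlapped as well.

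At the other end stood the phenylalanine enzyme, which is built from the alpha subunit Farsa and the beta subunit Farsb in equal numbers. Farsa (ENSMUSG00000003808, chromosome 8, 84856989 to 84869257) had 127 CPM (125 to 129) without drug, 164 CPM (161 to 166) after 3 h and 218 CPM (216 to 220.4) after 6 h. Its 3 h log2 ratio was 0.37 (0.34 to 0.40) and its 6 h ratio 0.78 (0.75 to 0.81), or 1.72-fold. Farsb (ENSMUSG00000026245, chromosome 1, 78417975 to 78488897) had 102 CPM (99.99 to 104), 106 CPM (104 to 108) and 108 CPM (107 to 110.1), a 6 h log2 ratio of 0.09 (0.05 to 0.12). Transcripts of the 2 subunits therefore moved by different amounts beyond counting error, and Farsa was the only cytosolic member above the control in all 3 scalings at 6 h. Yars, for tyrosine, had 95.8 CPM (94.003 to 97.6), 105 CPM (103 to 107) and 104 CPM (103 to 106), and Hars, for histidine, had 73.5 CPM (71.9 to 75.1), 75.4 CPM (73.8 to 77.1) and 78.7 CPM (77.3 to 80.2). Under TMM, Dars, Farsb, Hars and Yars were below the control at 6 h. Hars shares exonic sequence with Hars2 on the opposite strand, so the counts of both genes are uncertain in that respect. Exon overlaps on the opposite strand were also found for Farsb (Sgpp2), Yars (C77080) and Cars (Gm15580).

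Grouping by structure did not cleanly separate the cytosolic members. The 8 enzymes of the multisynthetase complex (Eprs, Iars, Lars, Mars, Qars, Rars, Kars and Dars) had a median 6 h log2 ratio of -0.18 with 7 below the control, and the 12 others had -0.23 with 8 below. These groups, like the catalytic classes, were drawn up after the values had been seen. Class I enzymes, whose active site is a Rossmann fold, had a median of -0.26 over 9 genes, with 8 below the control. Class II enzymes had -0.15 over 10 genes, with 6 below, and Eprs holds an activity of each class. Of all genes, 35.9% were below the control. From 3 h to 6 h, 9 of 9 class I and 6 of 10 class II genes were lower, beside 42.3% of all genes. The ranges overlapped throughout. Genes with the TGATGNAA core had a median of -0.35 over 5 genes and matched cytosolic genes without it -0.10 over 8, but Yars, which has the core, was above the control by CPM, and Eprs, which had no match, was among the lowest.

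**Figure D2:**
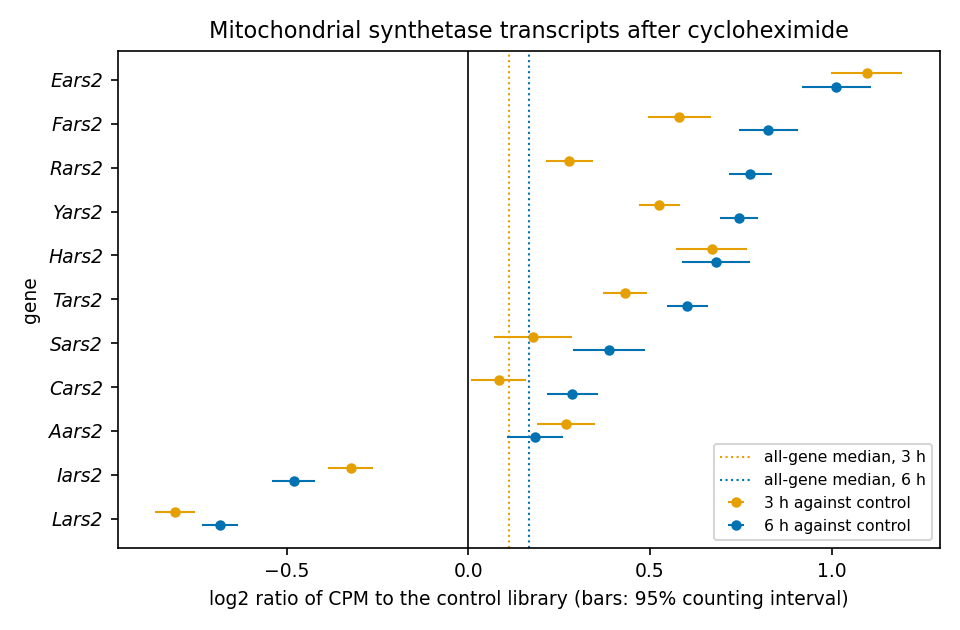
Log2 ratio of CPM to the control library for 11 mitochondrial synthetase genes above the floor, at 3 h (orange) and 6 h (blue). Bars are 95% counting intervals and dotted lines are all-gene medians. At both times 9 genes lie above 0, and Iars2 and Lars2 lie below it.

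Among mitochondrial members the highest ratio was that of Ears2, the glutamate enzyme of the organelle. Ears2 (ENSMUSG00000030871, chromosome 7, 122037213 to 122067263) had 11.3 CPM (10.7 to 11.9) without drug, 24.2 CPM (23.2 to 25.1) after 3 h and 22.8 CPM (22.01 to 23.6) after 6 h. Its 3 h log2 ratio was 1.10 (1.00 to 1.19) and its 6 h ratio 1.01 (0.92 to 1.11). The whole difference was thus present at 3 h. The ratio of 6 h to 3 h was -0.08 (-0.16 to -0.01), although the intervals of both levels overlapped.

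Fars2, Rars2 and Yars2 came next, and in these the level went on from 3 h to 6 h. Fars2 (ENSMUSG00000021420), the phenylalanine enzyme, had 16.1 CPM (15.4 to 16.9) without drug, 24.1 CPM (23.2 to 25.1) after 3 h and 28.6 CPM (27.7 to 29.5) after 6 h. Rars2 (ENSMUSG00000028292), the arginine enzyme, had 31.4 CPM (30.4 to 32.5), 38.1 (36.9 to 39.3) and 53.8 (52.6 to 55.04). Of its log2 ratio of 0.78 at 6 h, 0.28 was present at 3 h. Yars2 (ENSMUSG00000022792), the tyrosine enzyme, had 39.8 CPM (38.6 to 41.0), 57.3 (55.9 to 58.7) and 66.7 (65.3 to 68.03). These genes, with Ears2, Hars2 and Tars2, were the 6 mitochondrial members higher by at least 1.5-fold at 6 h, beside 22.1% of all genes. Hars2 had 12.7, 20.2 and 20.4 CPM, and Tars2 had 34.3, 46.3 and 52.1 CPM. A higher level at each step was seen for 7 of the 12 members, and for 45.7% of all genes.

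Cars2 and Sars2 had 6 h log2 ratios of 0.29 and 0.39. Aars2 (ENSMUSG00000023938), the alanine enzyme, had 20.9 CPM (20.04 to 21.7), 25.2 CPM (24.2 to 26.1) and 23.7 CPM (22.9 to 24.6), so its 6 h ratio of 0.18 lay close to the all-gene median of 0.17. Iars2 did not share the higher level of these genes. Iars2 (ENSMUSG00000026618), the isoleucine enzyme, had 44.7 CPM (43.5 to 46.01), 35.8 (34.6 to 36.9) and 32.1 (31.1 to 33.02). Its 6 h log2 ratio was -0.48 (-0.54 to -0.42), below the control in all 3 scalings. Exons of Iars2 overlap Rab3gap2 on the opposite strand, those of Fars2 overlap Lyrm4 and Nrn1, and those of Ears2 overlap Ubfd1. Those of Cars2 overlap Naxd and those of Hars2 overlap Hars, also on the opposite strand.

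The 5 members below the floor ranged from 3.03 CPM (Wars2) to 7.44 CPM (Mars2) in the control. At 6 h their log2 ratios were -0.28 for Nars2, -0.04 for Vars2, 0.03 for Mars2 and 0.20 for both Wars2 and Pars2. Intervals included 0 for Vars2, Mars2 and Wars2. Pars2, the proline enzyme, was highest at 3 h, with 5.22, 7.94 and 6.00 CPM.

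**Figure D3:**
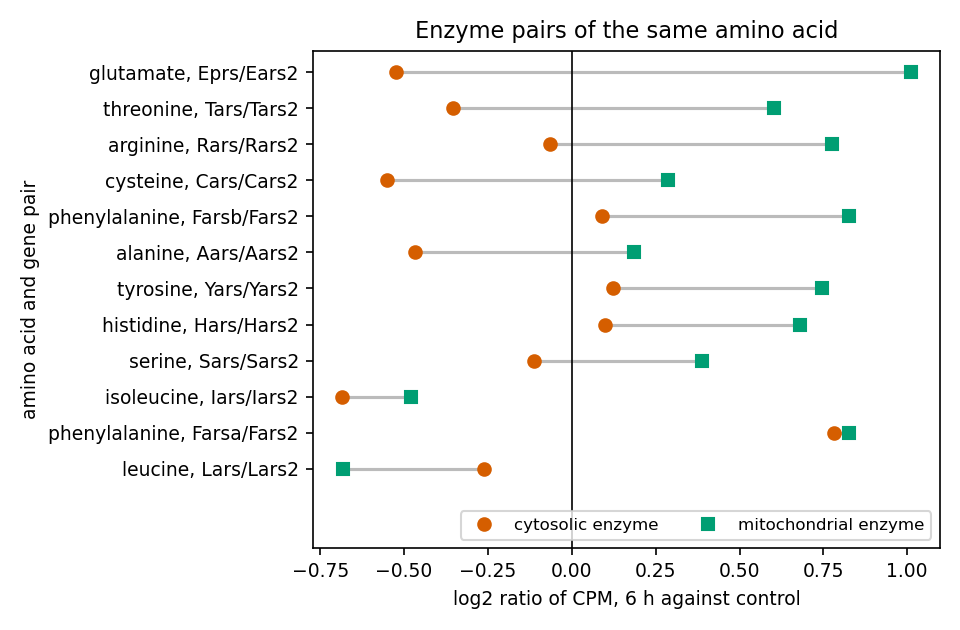
Log2 ratio of CPM at 6 h against control for cytosolic (circles) and mitochondrial (squares) enzymes of the same amino acid, for 12 gene pairs above the floor. The cytosolic gene lies to the left in 11 pairs, and the leucine pair is the exception.

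Pairs of enzymes for the same amino acid gave the contrast within each substrate. Values were compared in 17 such pairs, counting Farsa and Farsb each with Fars2 and Eprs with both Ears2 and Pars2, and both genes were above the floor in 12. The cytosolic gene had the lower 6 h ratio in 11 of 12 pairs and the lower 3 h ratio in 11 of 12, with Lars and Lars2 as the exception at both times. The median difference at 6 h was -0.64. It was widest for glutamate (Eprs against Ears2, -1.54) and threonine (Tars against Tars2, -0.96). It was close to 0 for Farsa against Fars2 (-0.04), whereas Farsb against Fars2 gave -0.74. The isoleucine genes were both below the control, with -0.69 for Iars and -0.48 for Iars2. Pairs that share a gene are not independent, and all pairs share the same libraries.

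**Figure D4:**
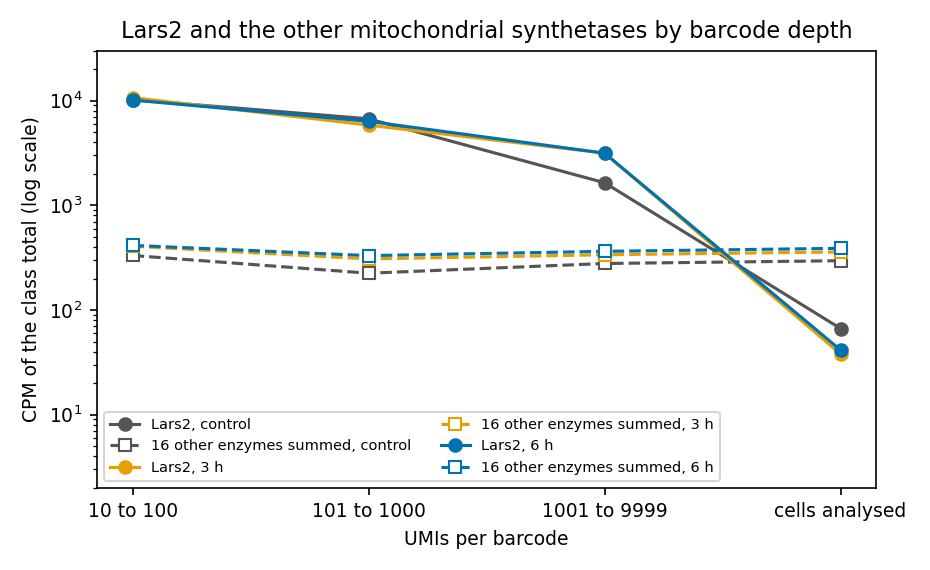
Level of Lars2 (filled circles) and summed level of the 16 other mitochondrial synthetases (open squares) in barcodes of rising UMI count, in CPM of each depth class on a log scale. Lars2 lies above 10000 CPM in barcodes with 10 to 100 UMIs and below 70 CPM in the cells of all 3 libraries, while the summed level of the others stays between 225 and 415 CPM.

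Lars2, the mitochondrial leucine enzyme, stood apart in the shallow barcodes. In cells, Lars2 (ENSMUSG00000035202, chromosome 9, 123366927 to 123462666) had 66.6 CPM (65.05 to 68.1) without drug, 38.05 CPM (36.9 to 39.2) after 3 h and 41.5 CPM (40.4 to 42.5) after 6 h. Its 3 h log2 ratio of -0.81 and 6 h ratio of -0.68 were the lowest of the mitochondrial members. In barcodes with 10 to 100 UMIs, too few for a cell, it had 10239, 10705 and 10138 CPM in the control, 3 h and 6 h libraries, or 154, 281 and 245 times its level in cells. The 16 other mitochondrial members together were 1.12, 1.13 and 1.07 times their level in cells. Among the other 31 members above the floor, the ratio of shallow barcodes to cells ran from 0.599 for Eprs to 1.52 for Sars2. Gm42418 and AY036118, transcripts that overlap ribosomal RNA sequence, showed a like pattern, at 77.1, 98.5 and 98.4 times and at 76.7, 89.4 and 72.3 times. Gm26917, in the same list, did not, at 0.592, 1.35 and 1.14 times. In cells, Gm42418 had 1544, 1116 and 1026 CPM, so that it too was highest in the control. The part that reads of such a source had in the Lars2 counts was not tested. Without Lars2 the mitochondrial median at 6 h was 0.60, and the summed level of the 16 remaining genes was 296, 359 and 388 CPM in the same order.

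**Figure D5:**
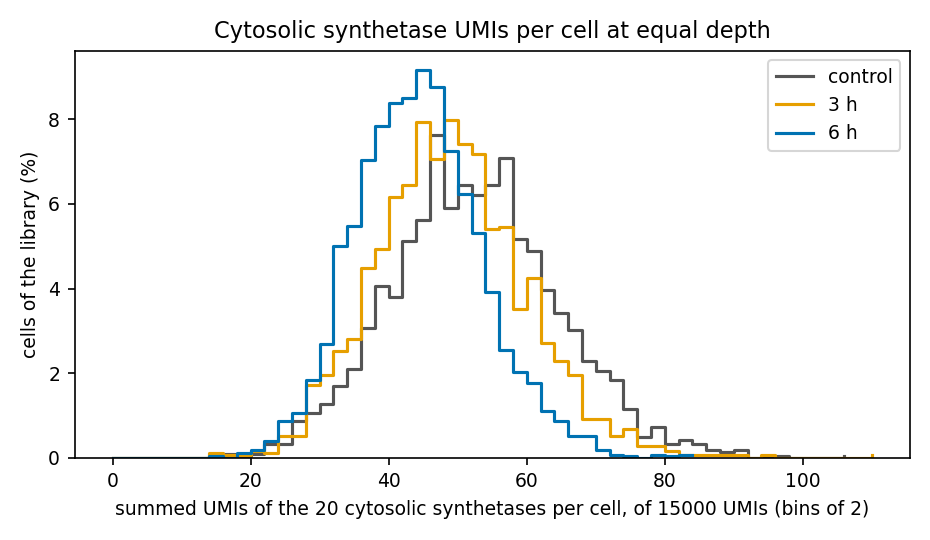
Share of cells (%) by summed UMIs of the 20 cytosolic synthetases, with every cell thinned to 15000 UMIs, in the control (grey), 3 h (orange) and 6 h (blue) libraries. The 3 distributions overlap, with medians of 52, 48 and 44 UMIs.

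The lower cytosolic level was spread over the cells of a library. With each cell thinned to 15000 UMIs, cytosolic synthetases had a median of 52 UMIs per control cell (5th to 95th percentile 33 to 72), 48 UMIs (31 to 66) per 3 h cell and 44 UMIs (30 to 60) per 6 h cell. Of the 6 h cells, 80.9% were below the control median, compared with 63.0% at 3 h and 49.6% of control cells themselves. No cell was at 0. The spread beyond counting error (variance minus mean, over the squared mean) was 0.0349, 0.0298 and 0.0207 in the same order. Mitochondrial synthetases had medians of 5, 6 and 6 UMIs in thinned cells. Within 4 groups of cells of each library, split by UMI count, the summed cytosolic log2 ratio at 6 h ran from -0.26 to -0.20 and the mitochondrial one from 0.20 to 0.26. Cells of a library share their culture and are not replicates.

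Other genes of tRNA charging were read for the same libraries. Of the scaffolds, Aimp1 had 274, 187 and 175 CPM in the control, 3 h and 6 h libraries, a 6 h log2 ratio of -0.65, while Eef1e1 had 151, 159.7 and 148 CPM and Aimp2 had 63.9, 70.8 and 76.2 CPM. By CPM, 2 of 3 scaffolds were thus below the control at 6 h, as were 35.9% of all genes, and Aimp2 was above it. The Eef1e1 log2 ratio was only -0.03, with an interval (-0.05 to 0.004) that included 0. Xpot, which exports tRNA from the nucleus, had 72.5, 47.3 and 35.9 CPM. Among 11 other charging genes above the floor, 2 were below the control at 6 h (Xpot and Mtfmt, the mitochondrial formyltransferase), beside 35.9% of all genes. Their median was 0.18, beside an all-gene median of 0.17.

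Known targets and regulators of Atf4 set the cytosolic enzymes in context. Atf4 itself had 242, 471 and 509 CPM. The target list, which holds no synthetase, had 23 of 31 identifiers above the floor. Of these, 17 were below the control at 6 h with a median of -0.49, and 18 at 3 h with a median of -0.29, beside 35.9% of all genes at either time. Trib3, a pseudokinase and feedback inhibitor, had 46.9, 19.3 and 10.9 CPM, and Chac1, which degrades glutathione, had 22.6, 6.79 and 2.58 CPM. The highest target was Ddit3, with a 6 h log2 ratio of 1.15. Asns, which makes asparagine, had 293, 298 and 301 CPM, unlike Nars, which charges it. Myc, a transcription factor with known synthetase targets, had 35.8, 25.6 and 6.78 CPM, and Mycn had 29.7, 29.8 and 10.8 CPM. Gcn1, the partner of Gcn2, had a 6 h log2 ratio of -0.66, Eif2ak4 one of -0.11 and Eif2ak1 one of -0.32. In the same list of regulators, Eif2ak2 had a 6 h log2 ratio of 0.82, with 20.4, 28.0 and 36.1 CPM. Impact had 0.06, with an interval that included 0. Of the 8 regulators above the floor, Atf4 included, 5 were below the control at 6 h, beside 35.9% of all genes.

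Other translation genes were read as 2 broad lists. Genes named after eukaryotic initiation and elongation factors had a median 6 h log2 ratio of 0.07 over 61 genes, with 26 below the control. That list was drawn by symbol, so it also holds kinases, binding proteins and methyltransferases that act on the factors, as well as Eef1e1, Eif2ak4 and Eif4ebp1, which are in lists above. Mitochondrial ribosomal protein genes had 0.13 over 78 genes, with 24 below. Both counts lay near the all-gene share of 35.9%. Both medians lay between those of the cytosolic (-0.22) and mitochondrial (0.50) synthetases. Single genes in these lists ranged widely, from Eif4g1 (-1.04) to Eif4a2 (1.68) and from Mrpl14 (-0.77) to Mrpl9 (1.32). With 1 library per group, the differences between these lists were not tested.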

How the data were processed

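The deposited matrices hold raw UMI counts of genes in barcodes and, per the file headers, come from Cell Ranger 4. Cell Ranger 4.0.0 and the build mm10 are named per the submitters' processing notes. The annotation and the counting of overlapping genes are not given in the sources used here. Gene positions are those of GENCODE M21 on GRCm38, matched by identifier. UMIs were summed over barcodes with at least 15000 UMIs and 1 to 20% mitochondrial UMIs and scaled to CPM. Log2 ratios used a prior of 0.5 counts and a floor of 10 CPM averaged over the 3 libraries. Intervals at 95% were exact Poisson for levels and exact conditional binomial for ratios. With 1 library per group no test was made and doublets were not removed. Ratios and intervals were checked on simulated counts. Full values were given for Aars, Gars, Wars, Sars, Eprs and Lars2, for the 5 highest and 5 lowest cytosolic and 4 highest and 4 lowest mitochondrial members at 6 h, and for members of opposite sign at 3 h and 6 h. For 1 mitochondrial member the values are not reported here, although class counts, medians and sums include it. Members and lists were chosen with earlier results of these data known. Alternatives covered scaling (TMM in edgeR 4.0.16, R 4.3.3), prior, floor, cell limits, thinning and free RNA. Python 3.11.15, numpy 2.4.6 and scipy 1.17.1 were used.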

Additional observations from a re-analysis of the deposited data

Results flagged for a closer look

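By CPM, Sars had opposite signs at the 2 times against the same control, with counting intervals that excluded 0 at both. Its 3 h log2 ratio was 0.12 (0.09 to 0.14) and its 6 h ratio -0.11 (-0.14 to -0.09), a difference of -0.23. Over all processing settings, its 3 h ratio was as low as 0.005 and its 6 h ratio as high as -0.005. By mean UMIs per cell, 2 of 20 cytosolic members were below the control at 3 h and 12 at 6 h. Opposite signs were therefore not particular to Sars on that scale. With 1 library per time, the difference for Sars was not tested.

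Lars2 gave a signal in barcodes that no comparison used. In barcodes with 10 to 100 UMIs its level was 10239, 10705 and 10138 CPM in the control, 3 h and 6 h libraries, from 36843, 35375 and 39751 UMIs. It was 6711, 5845 and 6350 CPM in the next class, up to 1000 UMIs, and 1645, 3153 and 3151 CPM in deeper barcodes that still fell short of cells. The level in cells was 0.650%, 0.355% and 0.409% of that in the shallowest barcodes.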

How the results depend on the processing

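Of 228 recomputed class medians, counts and differences, 193 stayed within set bounds, 32 moved beyond them and 3, all medians, changed sign. Counts were bounded by 1.5 times the reported count. Medians were bounded by the medians of their members' counting bounds, which are not the counting error of the median, and differences by both combined. Part of the 193 was fixed by construction. Class differences cannot change with the scale, and cytosolic medians and counts cannot change with the floor, as all 20 members exceeded 50 CPM. Summed levels are not among the 228. Under TMM the cytosolic median was -0.18 at 3 h, -0.38 at 6 h and -0.18 for 6 h against 3 h, and the mitochondrial median 0.16 at 3 h and 0.34 at 6 h. By mean UMIs per cell the cytosolic median turned to 0.20 at 3 h, with 2 genes below the control, and was -0.12 at 6 h and -0.29 for 6 h against 3 h. The mitochondrial median was then 0.54, 0.60 and -0.013 in the same order. The summed cytosolic ratio at 3 h turned to 0.17 and the summed mitochondrial ratio of 6 h against 3 h to -0.045. A floor of 50 CPM left Yars2 alone among mitochondrial members, with 0.53, 0.74 and 0.22, counts of 0 genes below, and class differences of -0.59 at 3 h and -0.97 at 6 h. With no floor, 17 mitochondrial members had a 6 h median of 0.20 with 5 below the control, and the median of 6 h against 3 h turned to -0.064 with 9 below. The class differences were then -0.42 at 6 h and -0.070 for 6 h against 3 h. Without Lars2 the mitochondrial 6 h median was 0.60 and the difference -0.83. Subtracting 10% free RNA set Lars2 to 0 in every library and gave 0.61 and -0.82. The cytosolic 6 h median was -0.19 without Gars and Kars, -0.20 in thinned cells, -0.25 with mitochondrially encoded genes left out of the total, and -0.18 with no lower mitochondrial limit, where the 3 h median was -0.040. Except where its construction shows it, the cause was not tested. The other class results from different priors, UMI limits, a 10% mitochondrial limit, per-cell weighting and removal of the deepest cells stayed within those bounds. Members of a few CPM have wide intervals at this depth. No paired analysis was possible because each group had 1 library.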

Other observations

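The route to selenocysteine tRNA starts from serine charged by Sars, and only transcripts of its later enzymes were read here. Sepsecs, the synthase of the last step, had 4.69, 10.00 and 14.2 CPM in the control, 3 h and 6 h libraries. Its 6 h log2 ratio was 1.60, although its mean was below the floor of 10 CPM. Pstk, the kinase before it, had 39.2, 39.2 and 50.8 CPM. Genes of the mitochondrial amidotransferase, which makes glutaminyl-tRNA after Ears2 has charged it with glutamate, had 6 h log2 ratios of 0.56 for Gatb, 0.41 for Gatc and 0.02 for Qrsl1. Of the proofreading factors, Prorsd1 had 0.59, Dtd2 0.49, Dtd1 0.18 and Aarsd1 0.07, beside an all-gene median of 0.17.

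Across thinned cells of a library, the summed cytosolic synthetase UMIs and the summed Atf4 target UMIs had a Spearman correlation of 0.37 over 2187 control cells, 0.35 over 1739 cells at 3 h and 0.24 over 2554 cells at 6 h. With Atf4 itself the values were 0.23, 0.13 and 0.05, and with mitochondrial synthetases 0.13, 0.05 and 0.02. These are descriptions across cells that share a library, a fixed depth and sparse counts.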
